A study of Homo sapiens with 32 samples.

Results

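The 10 genes described here encode core kinases and checkpoint proteins of cell division: BUB1, BUB1B, PLK1, AURKA, AURKB, CCNB1, CDK1, CDC20, MAD2L1 and TTK. Their chromatin was followed through 401 bp windows in which ATAC-seq reads had been counted. A window was taken when its centre lay within 500 bp of any transcript start of a listed gene in GENCODE release 44 (hg38). The rule uses position alone and no measured value. It found 20 of the 212358 windows in the table, with at least 1 window at each of the 10 genes, and all 20 passed the filter on low counts.

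ATAC-seq marks open DNA by letting the Tn5 transposase insert sequencing adapters into it. The cells were HEK_CloneZD29, a single clone of the embryonic kidney line HEK293T in which the zinc finger factor ZNF143 carries a degron tag. Control and treated cells therefore share the tagged ZNF143, and they differ in the agent: DMSO for the control, or 50 nM of the degrader dTAGV-1 for 30 minutes. Counts for replicates 9 to 16 of each group, 8 control and 8 dTAGV-1 libraries, carry all comparisons below. Replicates 1 to 8, whose controls are DMSO by title and untreated by another label, entered only as a list of peak summits with no value per library. No label ties the replicates to separate cultures, so p-values measure the spread between these libraries, which may be technical. ZNF143 protein was not analysed here, and how far it was degraded in each library is unknown.

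In dividing cells, CDK1 bound to cyclin B1 (CCNB1) drives entry into mitosis. PLK1 and the Aurora kinases build the spindle and correct its attachments, and the spindle checkpoint (TTK, BUB1, BUB1B, MAD2L1) holds CDC20, the activator of the anaphase-promoting complex, until every chromosome is attached. Promoters of such genes commonly carry CCAAT boxes, bound by NF-Y, and a CHR element (cell cycle genes homology region), through which the DREAM complex represses them in resting cells and B-MYB and FOXM1 activate them late in the cycle. ZNF143 binds a longer element at many promoters, and the BUB1B promoter has been described as a target of it.

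The sequences that bear on the comparison are the core of the ZNF143 element and the cell cycle elements beside it. They are printed 5′ to 3′ on the strand of the gene from hg38, with matches in capitals. The first is the stretch upstream of BUB1B, the only strongest window of the 10 genes with a match to the ZNF143 core (CCCA, then any base, and after it either AATGC or, in the other form searched, CATGC; both strands). The match starts at -102, counted from the canonical transcript start of the gene.
BUB1B (chr15:40160919-40161022, + strand): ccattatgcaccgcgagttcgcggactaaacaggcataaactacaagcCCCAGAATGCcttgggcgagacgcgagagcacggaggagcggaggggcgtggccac
The next 4 stretches come from strongest windows without the core. Capitals in them mark CCAAT (or ATTGG on the other strand), the CHR letters TTTGAA in CDC20 and AURKB, and an E2F-type site in CCNB1.
BUB1 (chr2:110678064-110678173, - strand): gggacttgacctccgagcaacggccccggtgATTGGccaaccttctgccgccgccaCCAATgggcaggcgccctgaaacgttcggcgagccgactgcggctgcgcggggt
CDC20 (chr1:43358871-43358980, + strand): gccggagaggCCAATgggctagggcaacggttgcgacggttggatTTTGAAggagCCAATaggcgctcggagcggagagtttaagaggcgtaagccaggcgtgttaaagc
CCNB1 (chr5:69167010-69167134, + strand): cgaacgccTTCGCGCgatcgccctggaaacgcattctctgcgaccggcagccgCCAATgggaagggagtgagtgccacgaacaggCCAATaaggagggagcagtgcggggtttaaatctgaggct
AURKB (chr17:8210601-8210715, - strand): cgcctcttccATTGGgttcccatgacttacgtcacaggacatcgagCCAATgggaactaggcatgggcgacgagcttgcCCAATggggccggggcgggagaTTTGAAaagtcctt
Short sites of 30 bases show the CHR letters at 6 further starts, since the transcribed part is not printed further. In TTK the match is on the other strand and reads TTCAAA.
BUB1B CHR (chr15:40161034-40161063, + strand): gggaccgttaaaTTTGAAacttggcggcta
PLK1 CHR (chr16:23678848-23678877, + strand): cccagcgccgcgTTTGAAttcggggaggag
AURKA CHR (chr20:56392201-56392230, - strand): aaaagaagaaccTTTGAAttctaacggctg
CDK1 CHR (chr10:60778453-60778482, + strand): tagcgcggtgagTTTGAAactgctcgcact
MAD2L1 CHR (chr4:120066807-120066836, - strand): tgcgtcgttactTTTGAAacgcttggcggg
TTK CHR (chr6:80004635-80004664, + strand): gcgacggggaaaTTCAAAcgtgtttgcgga

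Some libraries stood apart and touch every result. Totals ran from 2275856 to 11418578 counts in control and from 3373219 to 13671039 in dTAGV-1. The most open decile of windows took 32% of the counts of control replicate 12, 39.1% in dTAGV-1 replicate 12, 41.9% in dTAGV-1 replicate 11 and 45.9% in control replicate 11. Its share in the remaining libraries was 48.1% to 49.5%. Signal in those libraries was thus flatter, and at the 6 member windows of at least 5 log2 CPM (CPM, counts scaled to the library total) control replicate 12 was the lowest control in 6 of 6, a median of -1.31 from the median of the other controls. Values without replicates 11 and 12 of both groups are therefore given beside the results they change. As a check of the cell line, 7 of 8 genes listed as expressed in HEK293 cells had tested windows at their starts (LHX1 had none), with a summed 142 to 238 CPM in control and 170 to 236 in dTAGV-1. Of the marker genes of other cell types, PTPRC, CD3E, ALB, APOA1, KRT5 and INS had no tested window. A window near a start need not belong to that gene.

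None of the 20 windows passed the test after 30 minutes of dTAGV-1. By edgeR's quasi-likelihood test, adjusted over all 185040 tested windows at a threshold of 0.05, 0 of 20 were called, and DESeq2 also called 0. Calls were rare everywhere: 0.215% of all tested windows (397) and 0.567% of the 38119 tested windows at any gene's start, or 0.213% and 0.561% counting lower windows alone. At an unadjusted p under 0.05 edgeR had 2 of the 20, both at PLK1, 1 lower and 1 higher, beside 2.85% of all tested windows and 2.99% of promoter windows. In 0 of 20 windows did the groups separate completely, which occurred in 0.0746% of all tested windows and 0.15% of promoter windows. The median log2 fold change of the 20 was 0.0094, with 9 below 0, close to the median of 0.011 over promoter windows, of which 46.1% were below 0. Apart from the PLK1 windows at -63 and +757, the remaining 18 windows had log2 fold changes from -0.082 to 0.18, or 94.5% to 113% of the control level, with unadjusted edgeR p from 0.245 to 0.985.

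**Figure D1:**
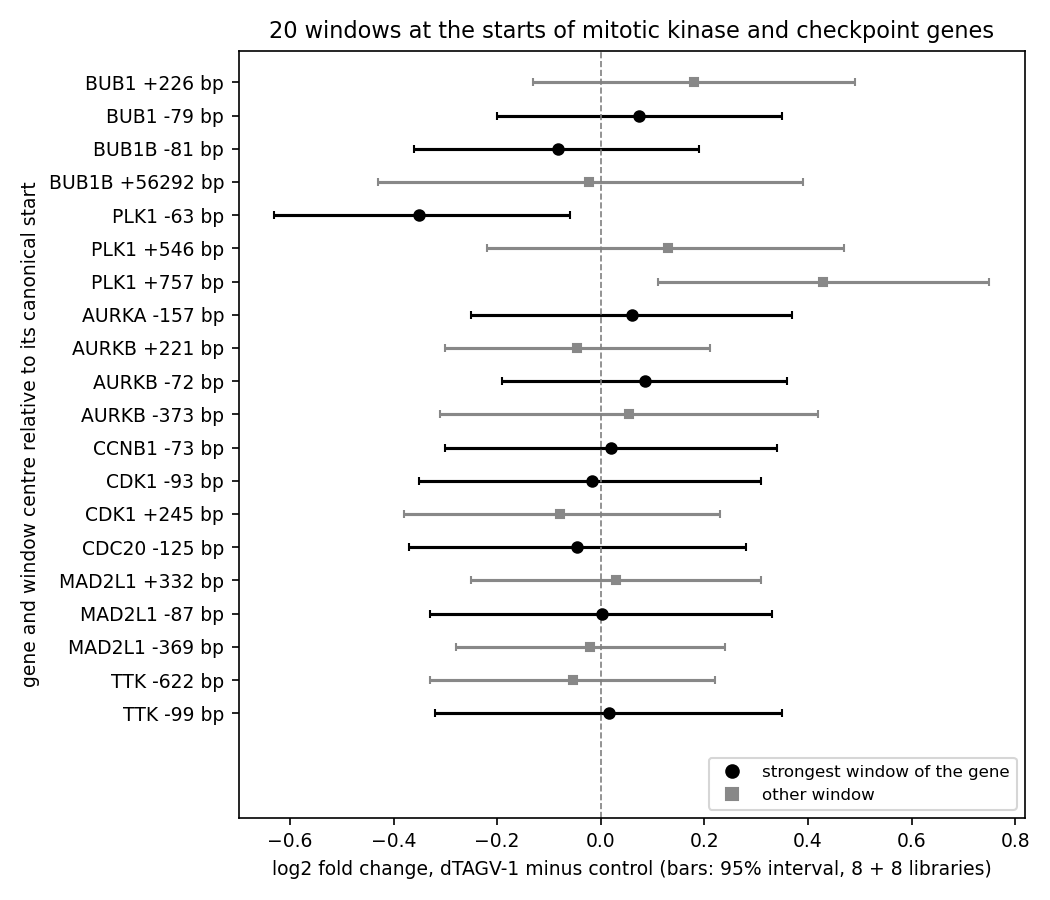
Log2 fold change (dTAGV-1 minus control, x axis) with its 95% interval for each of the 20 windows, named by gene and by the distance of the window centre from the canonical start in bp (y axis). Black circles mark the strongest window of each gene, and the intervals of 18 windows include 0, while those of PLK1 at -63 and +757 do not.

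How large a change the data could hide was set by these intervals. Their lower ends ran from -0.43 to -0.13 and their upper ends from 0.19 to 0.49 over the 18 windows. At the 6 strong windows (CDC20, CCNB1, TTK, CDK1, AURKA and MAD2L1) the standard error of the log2 fold change was 0.15 to 0.17. Without replicates 11 and 12 it was 0.062 to 0.073, and the intervals then lay between -0.18 and 0.19. Neighbouring windows can overlap and share counts, as the PLK1 windows at +546 and +757 do over 190 bp, so the 20 windows are not independent.

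Each gene's strongest window sat close to its canonical start, with the centre between -157 and -63. These 10 windows ranked at the 63.9th to the 98.7th percentile of promoter windows by abundance. They were picked as the most abundant of each gene and the promoter windows were not, so high ranks follow in part from that choice. The other 10 member windows ranked at percentiles 18.9 to 79.3. CDC20 was highest in control at 6.02 ± 0.45 log2 CPM (SD, n = 8), followed by CCNB1 (5.75 ± 0.43), TTK (5.74 ± 0.49), CDK1 (5.67 ± 0.51), AURKA (5.41 ± 0.43) and MAD2L1 (5.36 ± 0.57). PLK1 (4.42 ± 0.11), BUB1 (4.10 ± 0.27), AURKB (4.06 ± 0.33) and BUB1B (3.57 ± 0.30) formed the lower end. Windows have equal length, so these levels need no scaling by length, but they were not corrected for GC content or other sequence differences. Within a library, CDC20 lay 2.46 ± 0.41 log2 units above BUB1B, or 5.48-fold. Neighbours in this order did not differ beyond the SD of their within-library difference for CCNB1 and TTK (0.0071 ± 0.12), TTK and CDK1 (0.071 ± 0.09), AURKA and MAD2L1 (0.048 ± 0.27), and BUB1 and AURKB (0.036 ± 0.28). The SDs of the 6 highest windows came mostly from a single library: without control replicate 12 they were 0.10 to 0.18 in place of 0.43 to 0.57.

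**Figure D2:**
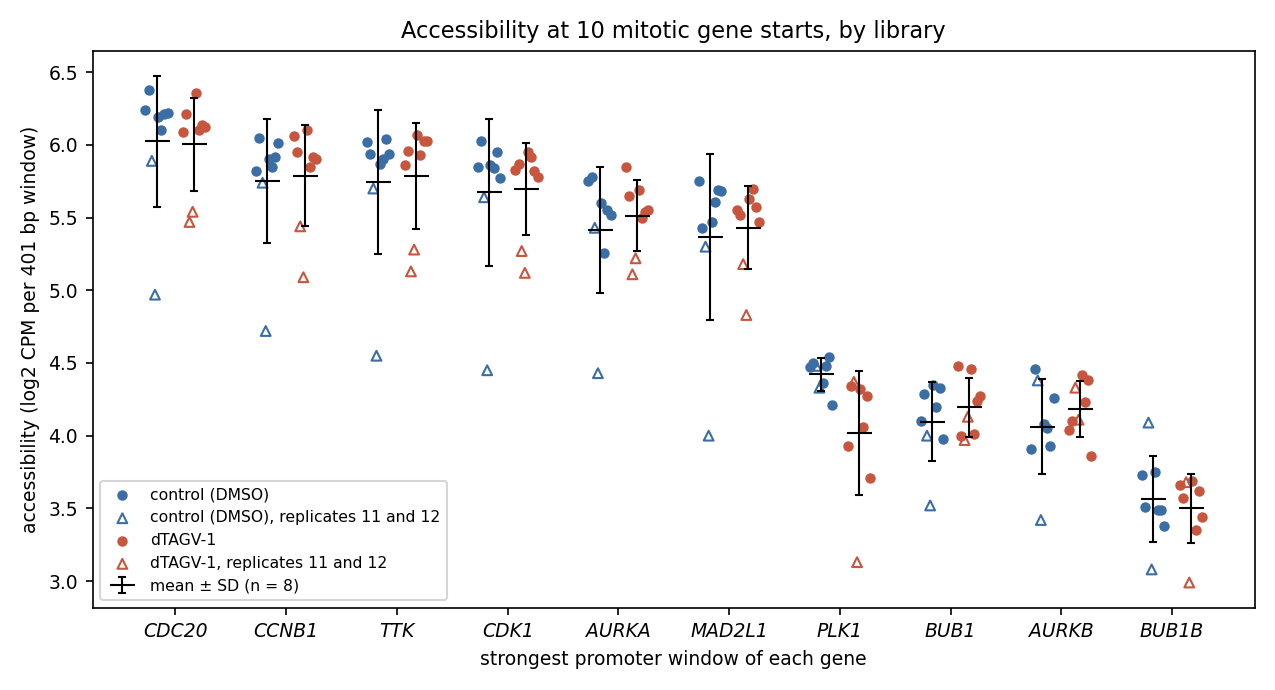
Accessibility in log2 CPM (y axis) of the strongest window of each gene (x axis) in every library, with control in blue, dTAGV-1 in red, replicates 11 and 12 as open triangles, and bars for the mean ± SD of 8 libraries. The groups overlap at all 10 genes, and control replicate 12 lies far below the other controls at the 6 highest, for example at 4.97 for CDC20.

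The genes of mitotic entry showed no detectable change. At the CDK1 window at -93 (chr10:60778185-60778585, its centre in an untranslated exon), control libraries measured 4.45 to 6.03 log2 CPM with a median of 5.84, and dTAGV-1 libraries 5.12 to 5.95 with a median of 5.83. All dTAGV-1 values fell inside the control range, but its lower end was control replicate 12, a flat library. The other controls measured 5.64 to 6.03, and dTAGV-1 replicates 11 (5.27) and 12 (5.12), also flat, lay below them. The log2 fold change was -0.017 (SE 0.16, 95% interval -0.35 to 0.31). The CCNB1 window at -73 (chr5:69166877-69167277, intergenic at its centre) measured 4.72 to 6.05 in control, median 5.88, and 5.09 to 6.10 in dTAGV-1, median 5.91. CCNB1, the regulatory partner without which CDK1 is inactive, thus overlapped between groups, with a log2 fold change of 0.019 (SE 0.16, interval -0.30 to 0.34). The second CDK1 window, at +245 with its centre in an intron, gave -0.078 (SE 0.15). The CCNB1 window also lies within 500 bp of a start of the unnamed gene ENSG00000248664.

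PLK1, the kinase of centrosome maturation, spindle assembly and cytokinesis, gave the lowest and the highest fold change of all 20 windows, in opposite directions and neither past the adjusted threshold. Its strongest window, at -63 (chr16:23678626-23679026, centre in a noncoding exon), measured 4.47, 4.50, 4.48, 4.33, 4.36, 4.48, 4.54 and 4.21 log2 CPM in control replicates 9 to 16. The dTAGV-1 replicates measured 3.93, 4.34, 4.37, 3.13, 4.32, 4.06, 4.27 and 3.71. Controls were tightly grouped, while 4 of 8 dTAGV-1 libraries (9, 12, 14 and 16) lay below the lowest control and the other 4 inside the control range. The log2 fold change was -0.35 (SE 0.14, 95% interval -0.63 to -0.06), or 78.7% of control, with an unadjusted edgeR p of 0.0185 and an adjusted p of 1.0. Replicate 12 of dTAGV-1, a flat library, was the lowest. In bulk libraries, fewer cells with the site open and less opening per cell cannot be told apart. Without replicates 11 and 12 the value was -0.30, with an unadjusted edgeR p of 0.00279 and an adjusted p of 0.413, in a range of 0.0983 to 1.0 over all alternatives.

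The PLK1 window at +757 (chr16:23679446-23679846, centre in an untranslated exon), which lies past the canonical start but 63 bp from another annotated start, was weaker and higher in dTAGV-1. Control replicates 9 to 16 measured 1.52, 2.26, 1.87, 2.12, 1.92, 2.02, 1.9 and 2.11 log2 CPM, and dTAGV-1 replicates 2.42, 2.39, 2.73, 2.21, 2.07, 2.48, 2.42 and 2.29. Here 6 of 8 dTAGV-1 libraries lay above the highest control, and replicates 12 and 13 did not. These levels rest on 11 to 49 counts per control library and 16 to 65 per dTAGV-1 library. The log2 fold change was 0.43 (SE 0.16, interval 0.11 to 0.75), or 135% of control, with an unadjusted edgeR p of 0.00938 and an adjusted p of 1.0. The overlapping window at +546 gave 0.13 (SE 0.17, interval -0.22 to 0.47).

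The 2 PLK1 windows can be set against each other within a library, where the scaling to the library total cancels. The flatness of a library does not cancel, since one window is strong and the other weak. This quantity was chosen after the values were seen, from the windows of lowest and highest fold change. It is given as a description with no test. The window at -63 exceeded that at +757 by 2.45 ± 0.28 log2 units in control (SD, n = 8; lowest 2.10, median 2.44, highest 2.95). In dTAGV-1 it did so by 1.64 ± 0.40 (lowest 0.92, in the flat replicate 12, median 1.61, highest 2.25). Of the dTAGV-1 libraries, 7 of 8 lay below the lowest control, and 5 of 8 controls lay above the highest dTAGV-1 library.

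**Figure D3:**
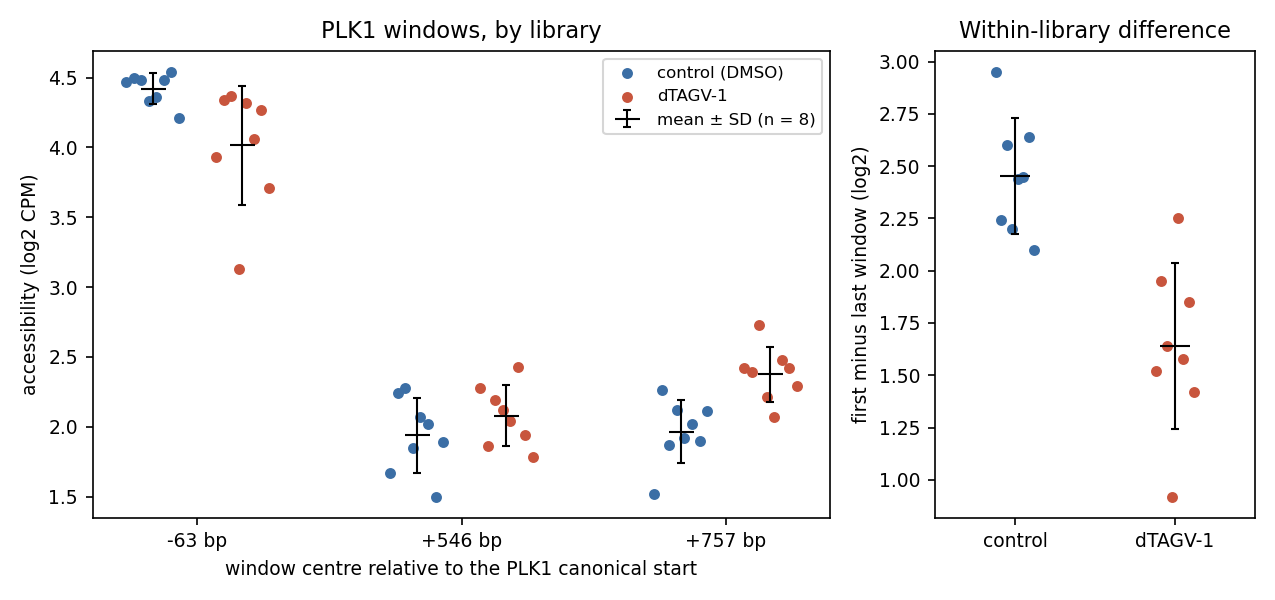
Left, accessibility in log2 CPM (y axis) of the 3 PLK1 windows (x axis, centre relative to the canonical start in bp) in every library, with the mean ± SD of 8 libraries per group; right, the window at -63 minus the window at +757 in each library (y axis, log2). Control values at -63 lie between 4.21 and 4.54 and dTAGV-1 values reach down to 3.13, while at +757 dTAGV-1 lies higher.

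The Aurora kinase windows had fold changes near 0. AURKA, the centrosomal kinase of spindle poles, had a single window at -157 (chr20:56392172-56392572), which it shares with a start of its divergent neighbour CSTF1, so its signal cannot be assigned to either gene. It measured 4.43 to 5.78 log2 CPM in control, median 5.53, and 5.11 to 5.85 in dTAGV-1, median 5.55. The groups overlapped, with 1 dTAGV-1 library above the highest control and a log2 fold change of 0.061 (SE 0.15, interval -0.25 to 0.37). AURKB is the catalytic subunit of the chromosomal passenger complex, which destabilises wrong attachments. Its strongest window at -72 (chr17:8210447-8210847, intergenic at its centre) measured 3.42 to 4.46 in control, median 4.06, and 3.86 to 4.42 in dTAGV-1, median 4.17. All dTAGV-1 values fell inside the control range, but its lower end was control replicate 12. The next control was replicate 9 at 3.91, and dTAGV-1 replicate 16 (3.86) lay below that. The log2 fold change was 0.086 (SE 0.14, interval -0.19 to 0.36). The AURKB windows at +221 and -373 gave -0.045 (SE 0.13) and 0.054 (SE 0.18).

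Among the checkpoint kinases, TTK (MPS1), which starts checkpoint signalling at unattached kinetochores, had a strong window at -99 (chr6:80004350-80004750, centre in an untranslated exon). Control libraries measured 4.55 to 6.04 log2 CPM, median 5.92, and dTAGV-1 libraries 5.13 to 6.07, median 5.94. The groups overlapped and the log2 fold change was 0.016 (SE 0.17, interval -0.32 to 0.35). A weaker TTK window at -622 gave -0.053 (SE 0.14). BUB1 phosphorylates histone H2A at centromeres and recruits other checkpoint proteins. Its window at -79 (chr2:110677942-110678342, intergenic at its centre, also near a start of ENSG00000289202) measured 3.52 to 4.35 in control, median 4.15, and 3.97 to 4.48 in dTAGV-1, median 4.18. With 2 dTAGV-1 libraries above the highest control and none below the lowest, its log2 fold change was 0.074 (SE 0.14, interval -0.20 to 0.35). The overlapping BUB1 window at +226 gave 0.18 (SE 0.15, interval -0.13 to 0.49), the highest of the set outside PLK1.

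BUB1B encodes BubR1, a part of the mitotic checkpoint complex that binds CDC20, and its window at -81 (chr15:40160788-40161188, intergenic at its centre) holds the ZNF143 core printed above. Control replicates 9 to 16 measured 3.73, 3.51, 4.09, 3.08, 3.75, 3.49, 3.49 and 3.38 log2 CPM. The dTAGV-1 replicates measured 3.66, 3.57, 3.68, 2.99, 3.69, 3.35, 3.62 and 3.44. Replicate 12 was lowest in both groups, and 7 of 8 dTAGV-1 libraries lay inside the control range. The log2 fold change was -0.082 (SE 0.14, 95% interval -0.36 to 0.19), or 94.5% of control, with an unadjusted edgeR p of 0.555, and it was -0.011 without replicates 11 and 12. The interval leaves out a fall below -0.36. A second window at +56292 (chr15:40217161-40217561) lies at an alternative BUB1B start inside the gene and at a start of PAK6. Its level of 1.67 ± 0.44 in control compared with 1.64 ± 0.26 under dTAGV-1 (SD, n = 8).

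MAD2L1 encodes the checkpoint protein MAD2, which changes its fold to lock onto CDC20. Its strongest window at -87 (chr4:120066735-120067135, near starts of the divergent transcript MAD2L1-DT) measured 4.00 to 5.75 log2 CPM in control, median 5.54, and 4.83 to 5.70 in dTAGV-1, median 5.53. All dTAGV-1 values lay inside the control range, but its lower end was control replicate 12. The other controls measured 5.30 to 5.75, and dTAGV-1 replicates 11 (5.18) and 12 (4.83) lay below them. The log2 fold change was 0.0032 (SE 0.16, interval -0.33 to 0.33). The flanking windows at +332 and -369 gave 0.029 (SE 0.14) and -0.020 (SE 0.13). CDC20, the target of the checkpoint, had the most open window of the set, at -125 (chr1:43358656-43359056, shared with the divergent transcript CDC20-DT). It measured 4.97 to 6.38 in control, median 6.20, and 5.47 to 6.36 in dTAGV-1, median 6.11. All dTAGV-1 values lay inside the control range, again with control replicate 12 as its lower end. The other controls measured 5.89 to 6.38, and dTAGV-1 replicates 11 (5.47) and 12 (5.54) lay below them. The log2 fold change was -0.045 (SE 0.16, interval -0.37 to 0.28).

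The distance rule cut between neighbouring windows at a few genes. Just inside it lay the MAD2L1 window -359 bp from its nearest start and the AURKB window at -348 from its nearest start, with log2 fold changes of -0.020 and 0.054. Just outside lay the MAD2L1 window at -583 from its nearest start (0.17), and the next windows of CDC20 at -760 (-0.092) and BUB1 at -771 (0.078). A PLK1 window 938 bp from a start did not pass the filter on low counts.

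The strongest windows shared cell cycle elements that the choice of genes by name did not use. The CHR letters (TTTGAA, or the variant form TTCGAA, on both strands) occurred in 9 of 10, all but CCNB1, and in 16.0% of the 38119 promoter windows of the same length. CCAAT occurred in 9 of 10, all but BUB1B, against 33.1% of promoter windows. The promoter windows were not reduced to the strongest of each gene, so these shares do not compare like windows. Over all 20 member windows, the CHR letters occurred in 11 and CCAAT in 14. Within 100 bp of the window centre, they occurred in 6 and 8 of the 10 strongest windows, against 6.35% and 21.4% of promoter windows. E2F-type letters occurred in 3 of 10 (CCNB1, CDK1 and MAD2L1) against 7634 of the 38119 promoter windows. The E2F letters searched on both strands were TTCCCGC, its variant form TTGGCGC, the further variant form TTCGCGC, and the last variant form TTGCCGC. The match in BUB1, at +1, reads TTCGAA, which is its own reverse complement and so counts on both strands, and no other matches overlapped. Positions of the CHR letters on the gene's strand were -65 in CDC20, -39 in AURKB, -29 in PLK1, -23 in BUB1B, -3 in AURKA and 24 in MAD2L1, with -69 and -13 in CDK1. GC content of the 10 windows ran from 54.6% to 67.1%, around the promoter median of 62.8%.

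**Figure D4:**
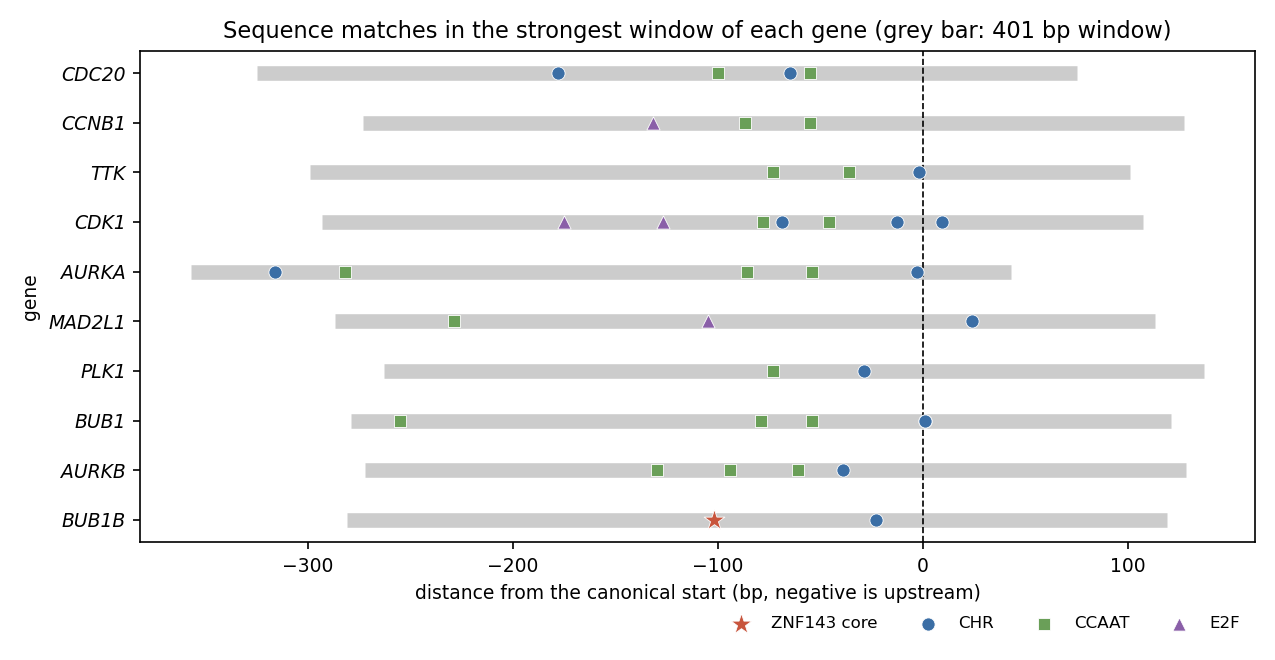
Positions of sequence matches in the strongest window of each gene (y axis), as distance of the first base from the canonical start in bp (x axis), with symbols for the ZNF143 core, CHR, CCAAT and E2F letters and grey bars for the 401 bp windows. The CHR letters lie near the start in 9 genes, and the ZNF143 core appears in BUB1B alone, at -102.

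The ZNF143 core was found in 1.36% of promoter windows, or 520. Of these, 39 were called by edgeR, all lower in dTAGV-1, which is 7.5%, against 0.567% of all promoter windows. The middle of their fold changes ran from -0.26 to 0.04 (quartiles, log2) around a median of -0.078. BUB1B had -0.082 (SE 0.14), and -0.011 without replicates 11 and 12. Neither PLK1 window with an unadjusted p under 0.05 held the core letters, which says only that these letters are not in these windows.

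The summit list of replicates 1 to 8 gave a separate view of where these promoters are open. It held 19 summits within 500 bp of starts of the 10 genes, 16 of them inside a member window, and 17 of 20 windows held a summit. In each gene the strongest summit lay between -179 and -53 and inside the strongest window. The authors' -log10 scores of those summits were highest for CCNB1 (1190), CDC20 (1160), TTK (1100) and CDK1 (1080), and lower for AURKA (646), MAD2L1 (517), AURKB (405), BUB1B (268), BUB1 (214) and PLK1 (213), against a median of 17.9 over the 259926 summits listed. PLK1 also had a summit of score 40.4 at +736, within the windows at +546 and +757. The BUB1B summit lay at -94, inside the ZNF143 core.

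Other genes of mitosis did include called windows. A list of 69 such genes (kinetochore, cohesion, spindle motors, WEE1-type kinases, CDC25 phosphatases and the anaphase-promoting complex) had 152 tested windows at 68 genes. Of these, edgeR called 4, all lower (2.63%, against 0.567% of promoter windows), and had 9 at an unadjusted p under 0.05, all lower, while DESeq2 called 5. The list was chosen with earlier results of these data known, so these shares are a description only. Its windows were also more open than promoter windows (median of 3.94 against 3.05 log2 CPM). The median log2 fold change of -0.0045 was close to that of promoter windows. KIF11 encodes the kinesin that pushes spindle poles apart. Its window at -1442 (chr10:92591488-92591888), at an upstream alternative start, measured 3.14 to 4.23 log2 CPM in control, median 4.07, and 2.78 to 3.53 in dTAGV-1, median 3.29. The log2 fold change was -0.74 (SE 0.14), or 59.7% of control, with an edgeR adjusted p of 0.00271, and 3 of 8 dTAGV-1 libraries were under the lowest control. This lowest control was the flat replicate 12, at -0.95 from the median of the other controls, whose SD was 0.13. That window holds a ZNF143 core, printed here for comparison with BUB1B, on the other strand.
KIF11 core (chr10:92591702-92591731, + strand): agcgagcgctGCATGCTGGGatccgtaggc
The KIF11 window at its canonical start, at -97, had a log2 fold change of 0.11 (SE 0.14).

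The other called windows lay at starts shared with, or near, another gene. MAD2L1BP, whose product removes MAD2 from the checkpoint complex, had its lower window at -6490 (chr6:43629150-43629550), within 500 bp of a GTPBP2 start. It fell by 0.75 on the log2 scale (SE 0.15, edgeR adjusted p of 0.00736), while the window at its canonical start, at -27, had -0.027. KIF20A, a kinesin of cytokinesis, fell at -439 (chr5:138178473-138178873), shared with BRD8, by 0.62 (SE 0.13, edgeR adjusted p of 0.0122), with 7 of 8 dTAGV-1 libraries below the lowest control. Its window at -57 had -0.15. CDC26, a subunit of the anaphase-promoting complex, fell at -29 (chr9:113275401-113275801), shared with PRPF4, by 0.66 (SE 0.15, edgeR adjusted p of 0.0209). ARPP19, an inhibitor of the phosphatase PP2A in mitosis, missed the threshold (log2 fold change -0.54, edgeR adjusted p of 0.0596), although its highest dTAGV-1 library (3.56) was under its lowest control (3.73). Among the fits without a replicate block, it passed the threshold by DESeq2, with library totals alone, with loess offsets, without control replicate 12 and without replicates 11 and 12 (adjusted p of 0.0017 to 0.014). CDCA8, a subunit of the passenger complex that AURKB works in, had -0.44 at -150, in a window shared with C1orf109. Its edgeR adjusted p was 1.0, and 1.67e-06 without replicates 11 and 12, in a range up to 1.0 over all alternatives. Without a block it also passed with loess offsets and without control replicate 12 (0.0181). Whether the core mitotic genes differ from these was not tested.

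The KIF20A call was lost without control replicate 9, 10 or 14 or dTAGV-1 replicate 9 (edgeR adjusted p of 0.0511 to 0.0712). The CDC26 call was lost without control replicate 9, 10, 13, 14, 15 or 16 or dTAGV-1 replicate 9, 11 or 16 (0.0542 to 0.109). It was also lost with no filter on low counts (0.0649). Both calls held by DESeq2, with adjusted p of 1.21e-06 for KIF20A and 3.93e-05 for CDC26. Without replicates 11 and 12 of both groups, the edgeR adjusted p was 2.24e-07 for KIF20A and 1.29e-11 for CDC26. In that fit it was 8.91e-07 for KIF11 at -1442 and 2.72e-12 for MAD2L1BP at -6490.

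**Figure D5:**
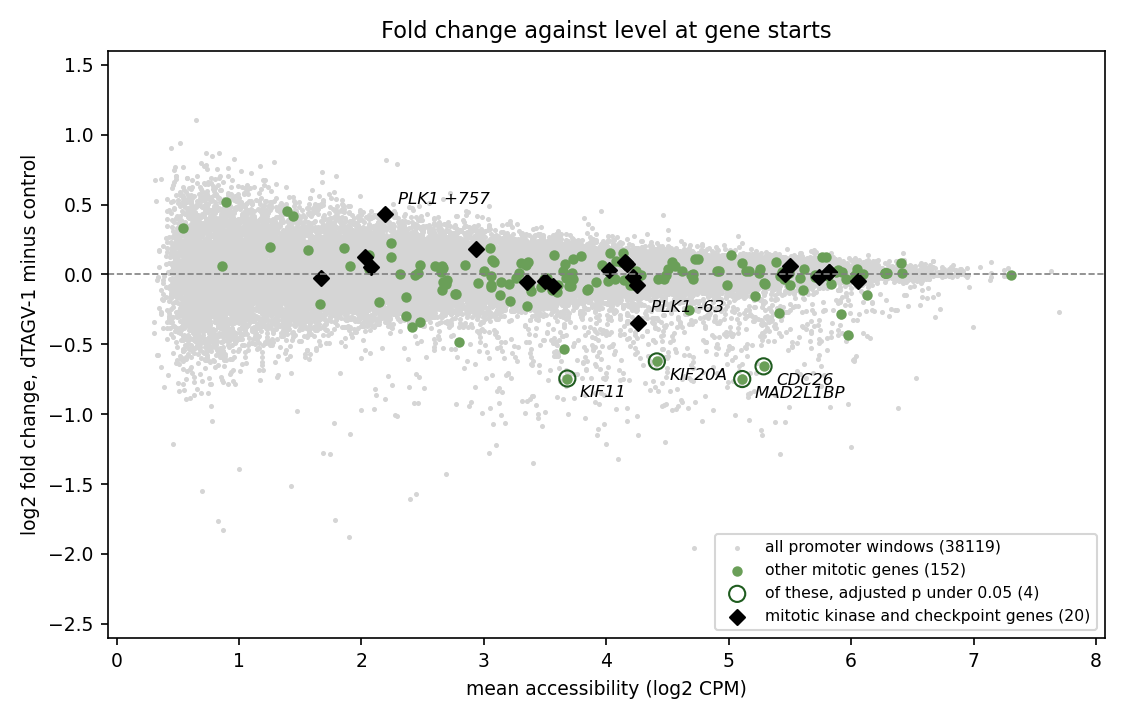
Log2 fold change (dTAGV-1 minus control, y axis) against mean accessibility in log2 CPM (x axis) for 38119 promoter windows in grey, 152 windows of other mitotic genes in green (4 called ones ringed) and the 20 windows of the mitotic kinase and checkpoint genes as black diamonds. The 20 lie within -0.35 and 0.43, and the ringed windows between -0.75 and -0.62.

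The factors that act through the printed elements showed no called window either. A list of 15 genes of the DREAM and MuvB complexes, E2F, B-MYB, FOXM1 and NF-Y had 32 tested windows. Of these, 0 were called by edgeR and 0 by DESeq2, and 2 had an unadjusted edgeR p under 0.05, both lower. These were RBL1 at -279 (log2 fold change -0.44) and RBL2 at -12 (-0.34), which encode the pocket proteins p107 and p130 of DREAM. RBL1 passed the threshold without replicates 11 and 12 (edgeR adjusted p of 0.0425, in a range up to 1.0 over all alternatives). FOXM1 had -0.29 at +574 and 0.18 at -39, and RBL2 at +1074 and NFYC at +17567 had 0.13 each. The median over the list was -0.0067.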

How the data were processed

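ATAC-seq windows were analysed for 8 control and 8 dTAGV-1 libraries. The authors deposited a table of whole-number counts per 401 bp window, not normalized, with a -log10 q per window, and a summit list with a -log10 score, both from peak calling by the authors. Cutadapt 1.8.1, Bowtie2 2.4.4, SAMtools 1.9 and hg38 are named per the submitters' processing notes. The peak caller, the counting tool and any Tn5 shift are not given in the sources used here. Columns left unused numbered 0.

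The test was the quasi-likelihood test of edgeR 4.0.16 (R 4.3.3) on counts, after filterByExpr and TMM scaling, without covariates and with Benjamini-Hochberg adjustment over all tested windows (threshold 0.05). Log2 CPM used TMM and a prior count of 2. Standard errors and 95% intervals were derived from the test statistic. DESeq2 1.42.0, other scalings, no filter, a replicate block and left-out libraries were alternatives. The fit was tested on simulated data. Replicate pairs differed by more than sampling noise (chi-square per degree of freedom 1.65 to 4.89 over 56 pairs), so all 16 libraries were counted.

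A promoter window had its centre within 500 bp of a GENCODE start. Each member gene was described by its tested window of highest average log2 CPM, its other windows by their values or ranges, with any window at an unadjusted p under 0.05 named. In the other lists (other mitotic genes, cell cycle promoter factors) called windows were named, or the 3 lowest and 3 highest changes where fewer than 3 were called, among windows at or above the median abundance of tested windows. Windows of those lists at an unadjusted p under 0.05 or at a start of a named gene, ARPP19 and CDCA8 among them, were named after their values were seen. The lists of HEK293 and other cell type genes served as a check. Some items of these lists and windows are not reported here. Members and lists were chosen with earlier results of these data known. Sequences were read from hg38 with pysam 0.24.0.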

Additional observations from a re-analysis of the deposited data

Results flagged for a closer look

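In 40 groups of 8 libraries (20 windows in each treatment), 9 log2 CPM values lay far below the other 7 of their group, by the gap to the nearest value relative to the range. Chance gives about 1 in 20 groups. All 9 belonged to control replicate 12, the shallowest and flattest library. It measured 4.97 at CDC20 -125 (others 5.89 to 6.38), 4.72 at CCNB1 -73 (5.74 to 6.05), 4.55 at TTK -99 (5.70 to 6.04) and 2.64 at TTK -622 (3.29 to 3.61). At CDK1 it measured 4.45 at -93 (5.64 to 6.03) and 3.47 at +245 (4.15 to 4.64). It measured 4.43 at AURKA -157 (5.26 to 5.78), 4.00 at MAD2L1 -87 (5.30 to 5.75) and 3.52 at BUB1 -79 (3.98 to 4.35). PLK1, AURKB and BUB1B had no such value.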

How the results depend on the processing

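The count of called member windows was 0 under every alternative run, including each left-out library and distances of 250 and 1000 bp. Over all tested windows, 397 calls became 683 with loess offsets, 781 without replicates 11 and 12, and 321 to 632 with 1 library left out, where control replicate 12 gave 632. Among other mitotic genes, 4 calls became 8 without replicates 11 and 12, and 2 to 6 with 1 library left out (2 without control replicate 9, 10 or 14 or dTAGV-1 replicate 9). Among promoter factors, 0 calls became 1 without replicates 11 and 12, and 0 to 0 with 1 left out. Of 140 values of member windows under the other alternatives, 135 kept their direction and 5 reversed, all with log2 fold changes near 0: without replicates 11 and 12 these were BUB1B +56292 (0.096), AURKB -373 (-0.1), MAD2L1 +332 (-0.0035) and MAD2L1 -87 (-0.035). Replicate numbers were not shown to pair the samples: correlations of same-numbered deviations ran from 0.0276 to 0.336, with 5 of 8 over 0.1. With the replicate block, 753 windows were called, 0 of them members, and BUB1B +56292 reversed (0.0098). The block also brought ARPP19 -82 (-0.53, edgeR adjusted p of 0.000582) and CDCA8 -150 (-0.44, edgeR adjusted p of 6.67e-05) past the threshold. The cause of these moves was not tested. With 1 library left out, 44 of 320 member values reversed. Those log2 fold changes ranged from -0.029 to 0.11 (AURKA -157), -0.021 to 0.18 (AURKB -373), -0.1 to 0.059 (BUB1B +56292), -0.074 to 0.093 (CCNB1 -73), -0.14 to 0.018 (CDC20 -125), -0.12 to 0.046 (CDK1 -93), -0.031 to 0.076 (MAD2L1 +332), -0.057 to 0.0037 (MAD2L1 -369), -0.1 to 0.066 (MAD2L1 -87) and -0.087 to 0.09 (TTK -99). Likewise, KIF11 -19017 ranged from -0.064 to 0.036 and MAD2L1BP -27 from -0.076 to 0.028. PLK1 kept its directions, from -0.39 to -0.27 at -63 and from 0.37 to 0.49 at +757.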
